A study of Mus musculus with 5 samples.

Results

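The 77 genes described here encode proteins of the mitochondrial ribosome, and they were followed through messenger RNA sequencing of the gastrocnemius, the main calf muscle, of NSG mice. Members were taken by name: protein-coding genes whose mouse symbol is Mrpl (large subunit) or Mrps (small subunit) followed by a number, with pseudogenes left out, which gave 48 large-subunit and 29 small-subunit genes among 35275 genes in the deposited table. NSG is a severely immunodeficient strain, on the NOD background, that carries the scid mutation and lacks a working interleukin-2 receptor gamma chain. All 5 libraries belong to 1 group: muscle of female NSG mice, genotype given as Wild Type, at 12 weeks of age, after 10 tail-vein injections (2 a week over 5 weeks) of about 10 µg of extracellular vesicles each, collected 2 days after the last injection. The vesicles came from MCF-10A/miR122 cells, a label that joins a human non-tumorigenic breast epithelial line with a microRNA best known from liver. No untreated library was analysed here, so what follows gives the levels of these genes in treated muscle, the order of those levels and their spread over the 5 libraries, and nothing about the effect of the vesicles. The labels number the libraries 1 to 5 without stating that each is another mouse, so every SD and p-value refers to the spread between these libraries, which may be in part technical.

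Mitochondria keep a small genome of their own and translate its messenger RNAs, which encode core subunits of the respiratory chain and of ATP synthase, on a ribosome that is distinct from the cytosolic one. The ribosomal RNAs of this particle come from mitochondrial DNA, whereas all its proteins are encoded in the nucleus, made in the cytosol and imported. Some of these proteins descend from bacterial ribosomal proteins and others were added in the mitochondrial lineage; the large subunit forms peptide bonds and the small subunit reads the messenger RNA.

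The library totals were 22922332, 18533514, 16674504, 23826585 and 25407988 reads in libraries 1 to 5. Apart from Mrpl53, which was listed at 0 in all 5 libraries, a member was covered by 89 to 5374 reads in a library. The labelled tissue matched its markers: 5 muscle fibre genes (Acta1, Ckm, Tnnt3, Mylpf and Atp2a1) summed to between 65218 and 84555 FPKM per library, where FPKM is reads per kilobase of gene and per 1000000 reads of the library, and none was at 0. Library 2 held 3073 FPKM of 5 slow-fibre markers, against 928 to 1297 in the other 4, with all 5 genes highest there. Library 3 held 305 FPKM of 5 macrophage markers (74.96 to 98.6 in the others) and 102 FPKM of 5 markers of regenerating or embryonic muscle (10.7 to 19.6 in the others), again with all 5 genes of each list highest there; of these, only Mymk was at 0 in any library, library 1. Fibroblast and matrix markers summed to 1021 FPKM in library 3 and 562 to 767 FPKM elsewhere, carried by the collagens Col1a1 and Col3a1; 3 of the 5 genes were highest in library 3, and Dcn and Pdgfra in library 2. Library 3 also held the highest sums of adipocyte markers (334 FPKM, 164 to 264 elsewhere, 5 of 5 genes highest there), erythroid markers (1028 FPKM, 328 to 500 elsewhere, 4 of 5 genes) and Schwann cell markers (189 FPKM, 86.1 to 127 elsewhere, 4 of 5 genes). In bulk tissue, fewer cells of a type and less RNA per cell cannot be told apart.

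Of the 77 genes, 76 were at a mean of 1 FPKM or more: 47 of 48 large-subunit and all 29 small-subunit genes. The median member was at 21.9 FPKM, against 6.004 FPKM for the 10710 genes of the table that averaged 1 FPKM or more. Between 1 and 10 FPKM lay 19 members, between 10 and 50 lay 42, and above 50 lay 15. The whole family took 0.506% ± 0.0167 of the summed FPKM of a library and 0.308% ± 0.0123 of its reads (SD, n = 5).

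**Figure D1:**
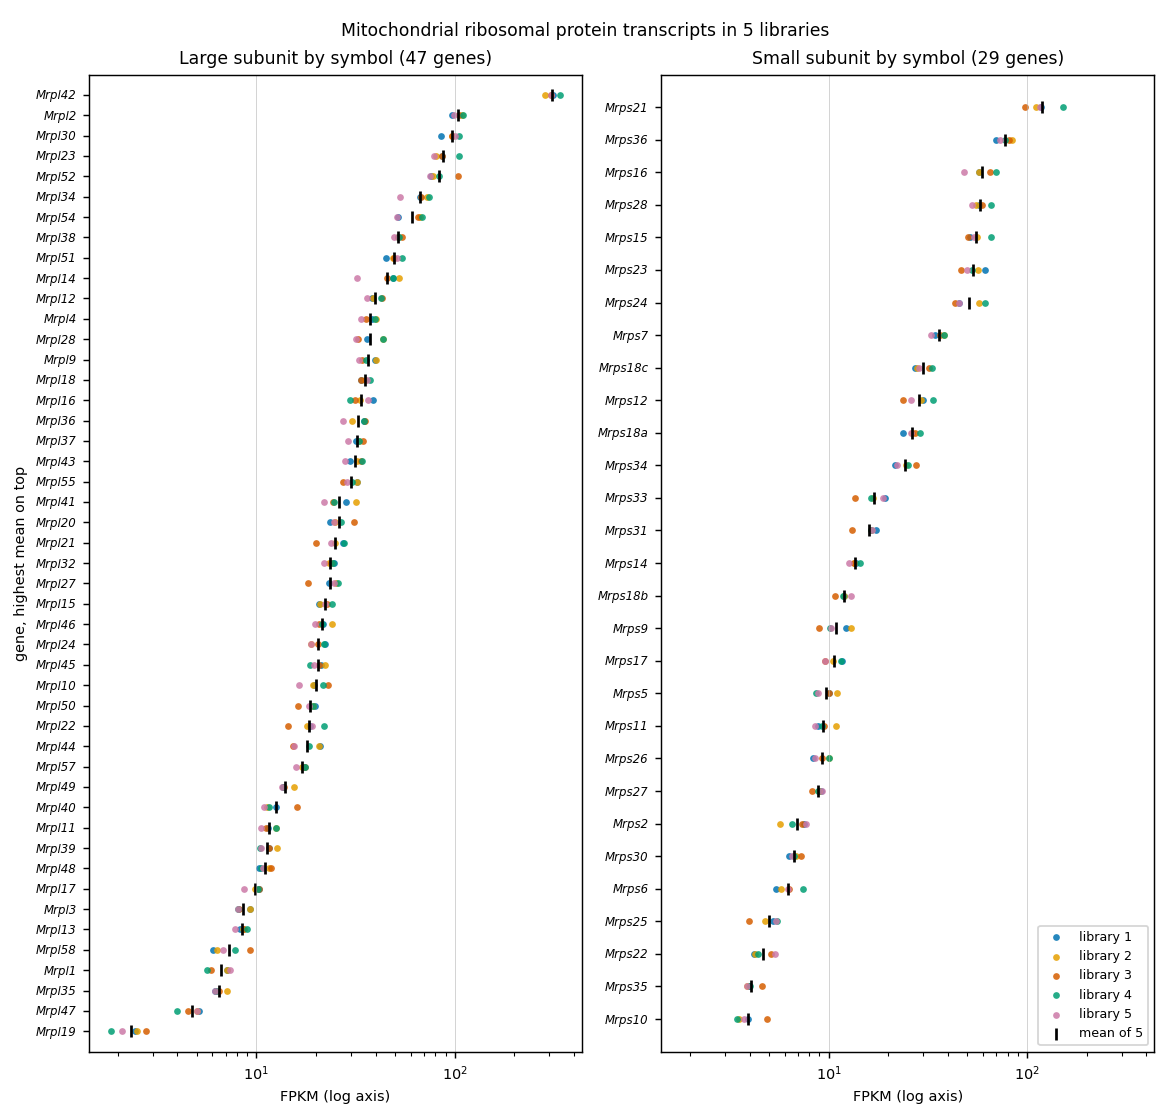
FPKM (log axis) of each of the 76 mitochondrial ribosomal protein genes that averaged 1 FPKM or more, with large-subunit and small-subunit genes in separate panels; each point is 1 of the 5 libraries and each black bar their mean. Mrpl42 stands at 285 to 339 FPKM at the top of the large subunit, and Mrps21 at 97.6 to 152 FPKM at the top of the small one.

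Among large-subunit genes the order was led by Mrpl42, at 310 ± 19.0 FPKM (SD, n = 5). Its 5 values were 313, 285, 307, 339 and 307 FPKM in libraries 1 to 5. Mrpl42 encodes mL42, a protein with no bacterial counterpart; it ranked 160 among all genes of the table and made up 18.03% of the summed FPKM of the large subunit. Its lowest library was still above the highest library of every other member, which was Mrps21 at 152 FPKM.

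Next came Mrpl2 (97.4, 109, 106, 110 and 99.9 FPKM), which encodes the counterpart of bacterial L2, a protein close to the peptidyl transferase centre. Mrpl30 stood at 85.4, 97.5, 97.3, 106 and 101 FPKM. Mrpl23, whose bacterial counterpart lines the exit of the peptide tunnel, stood at 86.9, 80.25, 86.0, 105 and 78.4 FPKM. The ranges of Mrpl30 and Mrpl23 both overlap that of Mrpl2. Compared within libraries, Mrpl2 was above Mrpl23 in 5 of 5 and above Mrpl30 in 4 of 5, and Mrpl30 above Mrpl23 in 4 of 5. Mrpl52, one of the proteins added in mitochondria, had 76.0, 77.5, 105, 83.2 and 75.6 FPKM, with library 3 above the other 4. Mrpl34, the counterpart of the short bacterial protein L34, had 66.8, 72.6, 67.6, 74.6 and 53.1 FPKM, with library 5 lowest.

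At the low end of the large subunit, Mrpl19 had 2.45, 2.51, 2.77, 1.86 and 2.11 FPKM and Mrpl47, which encodes the counterpart of bacterial L29, had 5.12, 5.02, 4.51, 4.005 and 5.03 FPKM. Mrpl53 was listed at 0 in all 5 libraries. In the GENCODE M21 annotation of GRCm38 it lies on the plus strand of chromosome 6, from base 83109040 to 83109939, and 695 of its 790 exon bases are shared with other genes: Gm42688 on the same strand and Ccdc142os on the opposite one. Gm42688 was itself at 0.575, 0.563, 0.576, 0.553 and 0.378 FPKM. The sources used here do not say how reads in shared exons were assigned, so the 0 cannot be read as absence of the transcript. Mrpl33 is not analysed here.

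The small subunit was led by Mrps21, which encodes the counterpart of bacterial S21. Its values were 118, 112, 97.6, 152 and 117 FPKM (119 ± 20.0, SD, n = 5), highest in library 4 and lowest in library 3, and it made up 15.4% of the summed FPKM of the small-subunit genes. Mrps36 followed at 69.8, 84.5, 81.3, 77.9 and 73.1 FPKM; its product is now known as a component of the 2-oxoglutarate dehydrogenase complex of the citric acid cycle and is not part of the ribosome structure, in spite of its name. Mrps16, counterpart of bacterial S16, had 57.5, 57.5, 65.0, 70.2 and 48.1 FPKM.

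Mrps28 (53.1 to 65.9 FPKM), Mrps15 (50.2 to 65.9 FPKM) and Mrps23 (46.6 to 61.3 FPKM) completed the 6 highest, with ranges that overlap each other and that of Mrps16, and no pair of these 4 had the same order in all 5 libraries. The lowest of the small subunit were Mrps10, the counterpart of bacterial S10, at 3.93, 3.55, 4.87, 3.47 and 3.76 FPKM, Mrps35 at 3.88 to 4.61 FPKM and Mrps22 at 4.22 to 5.39 FPKM. Mrps22 and Mrps35 encode proteins without a bacterial counterpart. The ranges of these 3 overlap, although Mrps22 was above Mrps35 and Mrps10 in 5 of 5 libraries.

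Some names do not say where the protein sits. Mrps30 and Mrps18a carry small-subunit symbols, but their products (mL65 and mL66) are built into the large subunit. Mrps30 was at 6.31, 6.89, 7.24, 6.71 and 6.51 FPKM. The 3 Mrps18 paralogs descend from 1 bacterial protein, S18, and were at different levels: Mrps18c at 27.4, 27.8, 32.2, 33.2 and 28.6 FPKM, Mrps18a at 23.9, 26.3, 27.3, 28.8 and 26.0 FPKM, and Mrps18b at 12.0, 12.0, 10.8, 11.8 and 12.95 FPKM. Mrps18b lay below both others in every library, while the ranges of Mrps18c and Mrps18a overlap, with Mrps18c the higher in 5 of 5 libraries. Per length of the main transcript Mrps18a would lead, at 66.4 FPKM, with Mrps18c at 38.4 and Mrps18b at 11.9. Mrps18c and Mrps18b share exon bases with the unnamed loci Gm43511 and Gm16279. Mrpl12, the protein of the stalk that recruits translation factors, also reported to bind mitochondrial RNA polymerase, was at 38.4, 38.8, 43.2, 42.3 and 36.2 FPKM. Mrpl58 encodes a peptidyl-tRNA hydrolase (ICT1) that rescues stalled ribosomes and is also built into the large subunit; it stood at 6.05, 6.34, 9.26, 7.84 and 6.78 FPKM.

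5 further proteins of the mitochondrial ribosome carry other names, and all 5 genes were detected. Chchd1 was the highest at 95.2 ± 7.05 FPKM, followed by Aurkaip1 (29.2 ± 2.37), Ptcd3 (16.2 ± 1.57), Dap3 (11.3 ± 0.950) and Gadd45gip1 (4.31 ± 0.731; SD, n = 5 each). The first 4 belong to the small subunit, and Gadd45gip1 to the large one. Their levels fall within the range of the Mrpl and Mrps genes. 5 pseudogenes with Mrpl or Mrps names reached at most 1.41 FPKM in any library; reads of a pseudogene and of its parent may be hard to tell apart, and the parents here include Mrps36, Mrpl23 and Mrpl48.

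The 47 members that the naming rule did not pick lay between these extremes. Among them, 32 large-subunit genes ran from 6.46 FPKM (Mrpl35) to 60.7 FPKM (Mrpl54), with a median of 21.9 FPKM, and 15 small-subunit genes from 4.99 FPKM (Mrps25) to 36.02 FPKM (Mrps7), with a median of 10.6 FPKM. Their coefficients of variation over the 5 libraries, SD over mean, ran from 4.42% to 15.3%.

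Large-subunit genes stood above small-subunit genes in the middle of their distributions. In each library, the median log2(FPKM + 1) of the 47 large-subunit genes was set against that of the 29 small-subunit genes. Subunits were taken by symbol, so Mrps36, Mrps18a and Mrps30 counted as small. The medians were 4.62 ± 0.07 for the large and 3.86 ± 0.06 for the small subunit (SD, n = 5). The difference was 0.72, 0.85, 0.76, 0.73 and 0.73 in libraries 1 to 5, a mean of 0.76 ± 0.05 and higher in 5 of 5 libraries (exact two-sided sign-flip permutation test, p = 0.062, which is the smallest 5 libraries allow; Benjamini-Hochberg adjusted over 6 such tests, 0.062). The test cannot pass 0.05, and it asks whether libraries show the difference alike, not whether another set of genes would. With only genes at 10 FPKM or more the difference was 0.02, higher in 4 of 5 libraries (exact sign-flip p = 0.69). That filter kept 39 large and 18 small genes. It cuts on the level that is compared, so a smaller difference may follow from the cut itself. Over all 47 and 29 genes, the difference was 0.47 when means over genes replaced medians and 1.15 for the summed FPKM.

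Summed, large-subunit genes reached 1721 ± 78.8 FPKM and small-subunit genes 774 ± 52.9 FPKM (SD, n = 5). The ratio of the sums was 2.24, 2.21, 2.35, 2.12 and 2.20 in libraries 1 to 5. The sums depend on the number of genes in each subunit, 48 and 29, and on Mrpl42 alone for 18.03% of the large one. They follow the symbols, so the small sum holds Mrps36, at 77.3 FPKM, which is not part of the ribosome. It also holds Mrps18a at 26.4 and Mrps30 at 6.73 FPKM, whose products are built into the large subunit. In the other direction, the small sum leaves out the otherwise named small-subunit genes. These are Chchd1 at 95.2, Aurkaip1 at 29.2, Ptcd3 at 16.2 and Dap3 at 11.3 FPKM. The large sum leaves out Gadd45gip1 at 4.31 FPKM. The sums by symbol are therefore not the sums of the subunits.

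Mrps36 aside, the 45 members with a bacterial counterpart had a median 0.46 ± 0.09 above that of the 30 mitochondria-specific members at 1 FPKM or more, on the log2(FPKM + 1) scale (4.70 ± 0.06 and 4.23 ± 0.09; SD, n = 5). It was higher in 5 of 5 libraries, with the same smallest possible exact sign-flip permutation p of 0.062 (adjusted 0.062). Per annotated exon length it was 0.02, higher in 3 of 5 libraries (exact p = 0.81). It was 0.18 with means over genes and 0.27 without members that share exon bases. Mrps18a and Mrps18b, which descend from S18 but are classed under mitochondria-specific names (mL66 and mS40), were counted as mitochondria-specific; counted with the bacterial type, the difference was 0.45. The exon length, shared-base and S18 settings were chosen after seeing the data.

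FPKM divides reads by a gene length, and the length matters for the order of the members. Lengths that turn the deposited values back into whole reads ran from 412 to 6073 bases over the members, with a median of 1285 in the large and 1536 in the small subunit. They equal the length of the main annotated transcript for 38 members, exceed 2 times that length in 5 and fall below 0.5 of it in 4. Across the 76 members, level and length had a Spearman correlation of -0.69, and mean reads and length one of 0.01; this is a description across genes of shared libraries, and FPKM itself contains the length. Per length of the main transcript, Mrps16 would stand at 13.1 FPKM in place of 59.6, Mrps10 at 15.7 in place of 3.91 and Mrps22 at 12.9 in place of 4.68, whereas Mrpl42 would remain at 310. Per annotated exon length, 3682 bases in place of 666, Mrpl42 would stand at 56.1 FPKM, below Mrps21 at 115 and Mrpl2 at 92.0. Its lead therefore depends on the length used. The large-minus-small difference was 0.68 per main transcript length and 0.82 per annotated exon length.

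**Figure D2:**
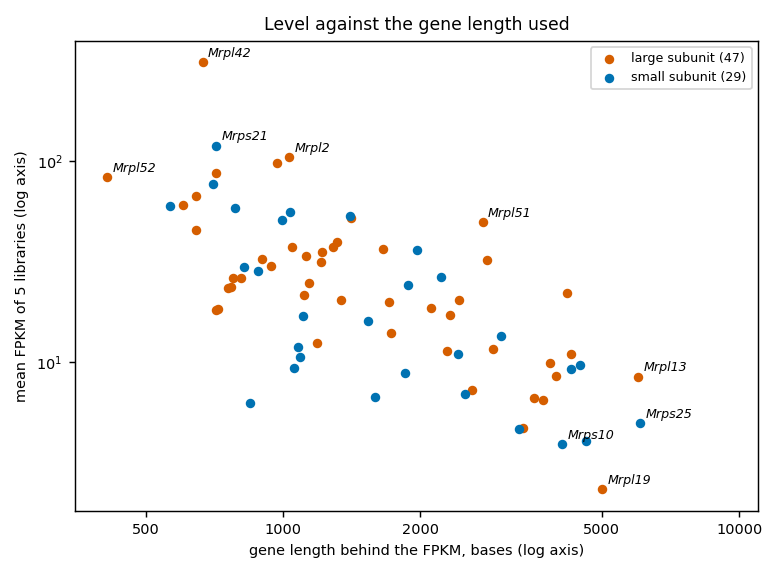
Mean FPKM over 5 libraries (log axis) of each of the 76 members against the gene length in bases that makes its values whole reads (log axis), with large-subunit and small-subunit genes in different colours. Members with short lengths, Mrpl42 and Mrpl52 among them, lie at the top left, and Mrpl19, at 5000 bases, at the bottom right.

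The spread of the members over the 5 libraries was small. Their median coefficient of variation (SD over mean) was 9.40%, with 7.75% in the large and 9.94% in the small subunit, against 16.3% over all 10710 genes; the nuclear genes of the respiratory chain had 13.7% and the cytosolic ribosomal proteins 15.8%. Counting error alone would give the median member 3.77%. For 72 of the 76 members the highest library was less than 1.5 times the lowest, and the largest such ratio was 1.64, for Mrpl14. In the fit over all genes with limma, which set the variance of each gene against the trend for its level, 0 of 76 members varied at an adjusted p below 0.05, where 0% of all 10710 genes did. At an unadjusted p below 0.05 the members again counted 0, where 5.75% of all genes passed. The adjusted count of 0 is no evidence of a small spread, because the fit also left clearly uneven genes uncalled. Among these were the macrophage marker Cd68, at 3.21 to 35.3 FPKM, and Mymk, at 0 to 22.1 FPKM. The ratio of spread to trend was below 1 for 58 of 76 members (76.3%), where 51.4% of all genes were, and its median was 0.45 for the members and 0.97 for all genes. The share below 1 was 84.6% for assembly factors, 86.7% for translation factors and 87.5% for the synthetases, and it held for all 5 of the otherwise named ribosomal proteins. It was 75% for import and processing and 66.7% for the expression of mitochondrial DNA. Lower shares were those of the nuclear respiratory chain (57.1%), biogenesis regulators (55.6%), mitochondrial messenger RNAs (53.8%) and cytosolic ribosomal proteins (36.8%). A low spread was therefore shared by some related lists and not by others. By a chi-square test on recovered reads, added after seeing the data, 63 of 76 members (82.9%) varied beyond counting error, against 87.9% of all genes.

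The largest coefficients of variation among members were those of Mrpl58 (18.1%), Mrpl14 (17.5%), Mrps21 (16.8%), Mrpl40 (16.5%) and Mrps24 (16.2%). Mrpl14 (the counterpart of bacterial L14) had 49.0, 52.6, 45.5, 48.7 and 32.0 FPKM, with library 5 below the rest. Mrpl40 had 12.6, 11.4, 16.04, 11.5 and 10.96 FPKM, with library 3 above the rest. Mrps24, whose product corresponds to bacterial S3, had 45.6, 57.6, 43.5, 61.6 and 45.7 FPKM, with libraries 2 and 4 above the rest. Part of this spread rests on single libraries: the coefficient of variation is 11.6% for Mrpl58 and 6.10% for Mrpl40 without library 3, 8.42% for Mrps21 without library 4 and 5.97% for Mrpl14 without library 5. In each case the library left out is the one farthest from the mean of the gene, so a lower SD was fixed in advance. For Mrps24 the coefficient stayed between 13.4% and 17.1% whichever library was left out.

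The steadiest members were Mrpl38 at 51.6, 52.0, 54.4, 52.35 and 49.6 FPKM (3.26%), Mrpl57 at 17.4, 17.0, 17.6, 17.6 and 15.9 FPKM (4.14%) and Mrpl18 at 33.8, 35.3, 33.8, 37.5 and 36.0 FPKM (4.42%). Mrpl38 and Mrpl57 are proteins of the large subunit without a bacterial counterpart, and Mrpl18 binds 5S ribosomal RNA in bacteria. The counting errors of these 3 are 2.56%, 3.48% and 3.33%, so their spread lies close to what counting gives.

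**Figure D3:**
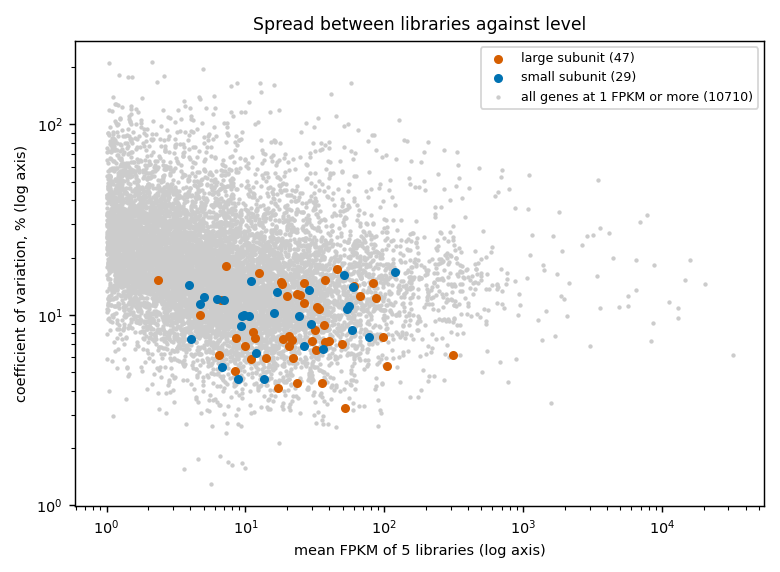
Coefficient of variation over 5 libraries (percent, log axis) against mean FPKM (log axis) for all genes at 1 FPKM or more, in grey, and for the 76 members, in colour. The members lie mostly below the middle of the cloud at their level, with a median of 9.40% against 16.3% for all genes.

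The members nevertheless leaned to particular libraries. The highest of the 5 values fell in library 4 for 28 of 76 members (36.8%), where 10.5% of all genes did so, and in library 3 for 17 (22.4%), where 37.4% of all genes did. Library 1 was the highest for 10 members, library 2 for 16 and library 5 for 5, with 21.2%, 23.2% and 7.68% of all genes. The lowest fell in library 5 for 31 members (40.8%), where 24.9% of all genes did, and in library 4 for 8 (10.5%), where 38% of all genes did. Libraries 1, 2 and 3 were the lowest for 17, 3 and 17 members, with 10.2%, 9.8% and 17.1% of all genes. By subunit, the highest value was in library 4 for 15 of 47 large and 13 of 29 small members, and the lowest in library 5 for 25 of 47 large and 6 of 29 small members; whether the subunits differ in this was not tested. In library 4, the highest for 28 of 76 members, 4 of the 5 muscle fibre markers were also highest, with a summed level of 84555 FPKM against 65218 to 78961 FPKM in the other libraries. The slow-fibre markers were highest in library 2 and the macrophage and regenerating-muscle markers in library 3. The part of any of these in the members' values was not tested.

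**Figure D4:**
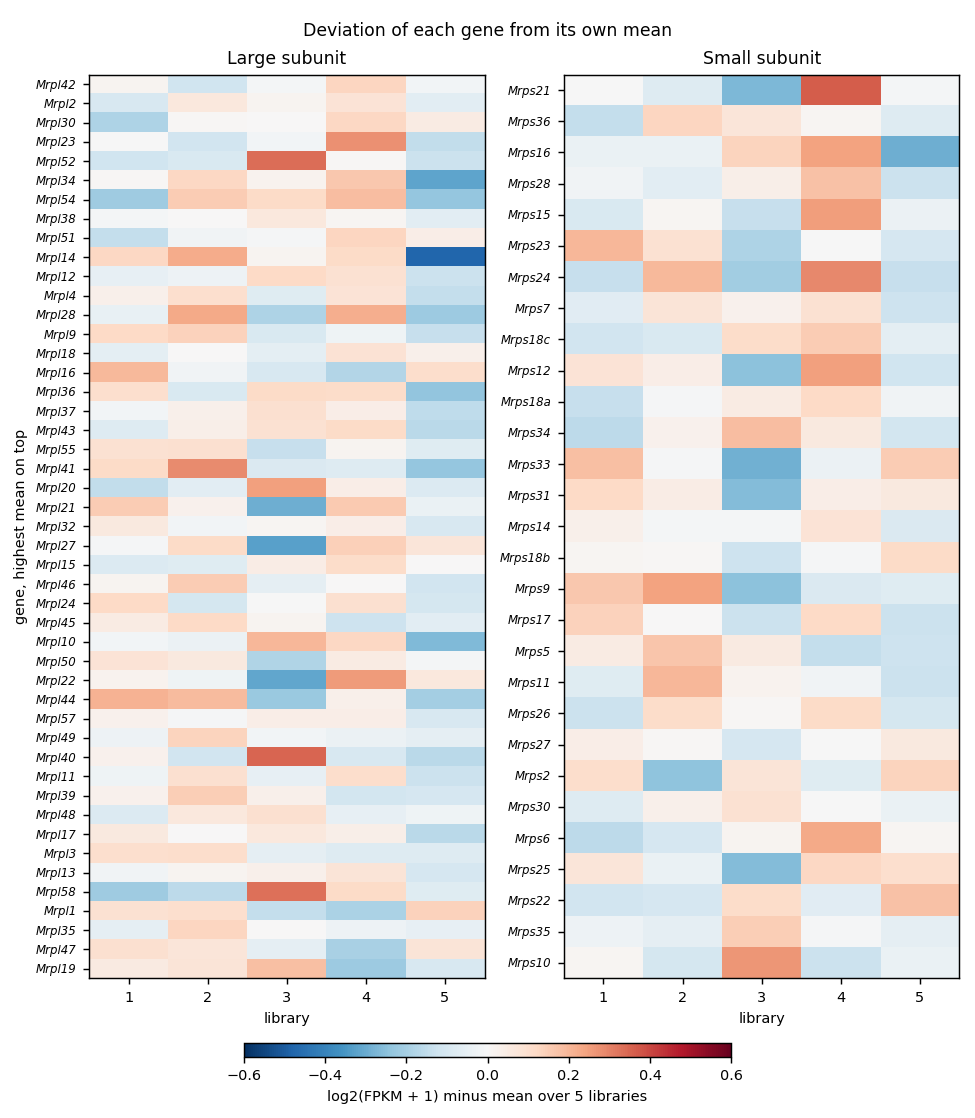
Deviation of each member from its own mean over 5 libraries, log2(FPKM + 1), shown by colour, with genes as rows by subunit and libraries as columns. Library 4 is the highest for 28 of 76 members and library 5 the lowest for 31.

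A score, the mean over members of log2(FPKM + 1) minus the mean of the gene, put a size on this. It was -0.000126, 0.032, -0.012, 0.054 and -0.074 in libraries 1 to 5 (SD 0.049), against 0.014, 0.059, 0.10, -0.10 and -0.076 for all genes. For the 77 nuclear genes of the respiratory chain at 1 FPKM or more it was -0.02, 0.18, -0.18, 0.15 and -0.13, and for 76 cytosolic ribosomal proteins -0.19, -0.12, 0.34, 0.13 and -0.15. From the lowest to the highest library the mitochondrial ribosomal genes spanned 0.13, the respiratory chain genes 0.36 and the cytosolic ribosomal genes 0.53. Some other mitochondrial lists spanned about as little as the members: 0.10 for import and processing, 0.14 for translation factors, 0.16 for mitochondrial DNA expression and 0.17 for assembly factors. The synthetases and the otherwise named ribosomal proteins spanned 0.21 each and the biogenesis regulators 0.23, where all genes spanned 0.20. With FPKM as deposited, the narrow span was therefore not particular to the members, nor was it shared by every related list. The 13 mitochondrially encoded messenger RNAs, the templates this ribosome reads, spanned 0.51, from -0.23 in library 1 to 0.29 in library 3. Their mean levels ran from 8.24 to 20437 FPKM, and the score weighs each gene alike. Low ones such as mt-Atp8 (4.06 to 17.3 FPKM) and mt-Nd4l (13.7 to 37.2 FPKM) therefore count as much as mt-Co1. Means of 74.8 FPKM or less were also listed for mt-Nd3, mt-Co2, mt-Co3 and mt-Atp6. The handling of multiply matching reads is unstated, so these low values cannot be read as low transcript levels. By gene, 8 of the 13 were highest in library 3, all these low ones except mt-Co3 among them. The other 5, mt-Co1 and mt-Co3 among them, were highest in library 2.

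This picture depends on the scaling. FPKM divides by the library total, and scaling to the median ratio of all genes divides the values by factors that were, on the log2 scale, -0.16 for library 4 and -0.099 to 0.096 for the others, so it raises library 4 most. After it, 59 of 76 members (77.6%) were highest in library 4, where 27.6% of all genes were, and the score became -0.056, -0.060, -0.10, 0.20 and 0.016. For all genes, which this scaling centres, the score was -0.034, -0.021, 0.024, 0.028 and 0.0035. Its SD over libraries was then 0.12 for the members, above the 0.027 of all genes. It was 0.22 for the respiratory chain and 0.25 for the cytosolic ribosomal genes. The median coefficient of variation of the members was then 12.6%, against 15.6% for all genes, and the median ratio of spread to trend 0.81, against 0.99. Under the same scaling 66 of 77 respiratory chain genes and 53 of 76 cytosolic ribosomal genes were also highest in library 4.

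**Figure D5:**
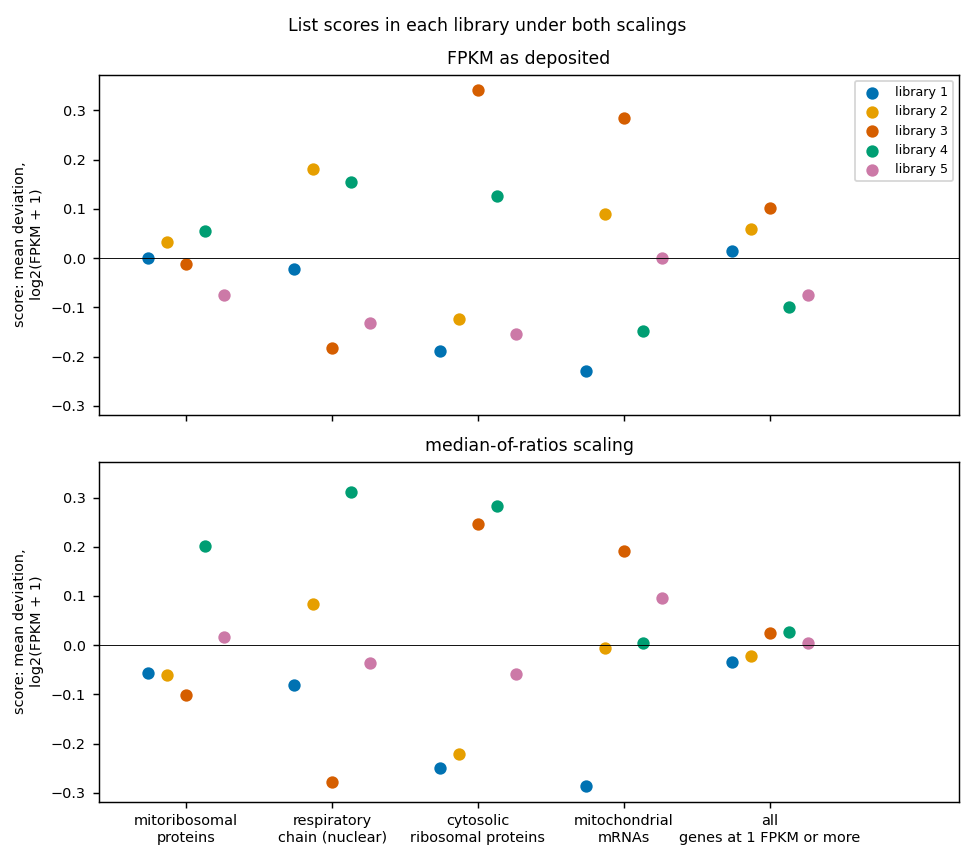
Score of 5 gene lists in each library, the mean deviation in log2(FPKM + 1), with FPKM as deposited in the upper panel and after median-of-ratios scaling in the lower one; each point is 1 library. With FPKM as deposited the mitochondrial ribosomal proteins lie between -0.074 and 0.054, and after scaling library 4 stands at 0.20.

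Set beside related lists, the members stood between abundant and scarce groups. Their median log2(FPKM + 1) lay 3.65 ± 0.12 below that of the nuclear respiratory chain genes and 3.22 ± 0.22 below that of the cytosolic ribosomal proteins. It lay 1.71 ± 0.05 above that of 26 assembly factors of the mitochondrial ribosome and 1.85 ± 0.07 above that of 16 mitochondrial aminoacyl-tRNA synthetases (SD, n = 5). Each of the 4 differences had the same sign in 5 of 5 libraries, with the smallest possible exact sign-flip permutation p of 0.062 (adjusted 0.062). In median levels, the members at 21.9 FPKM compare with 288 for the respiratory chain, 217 for the cytosolic ribosome, 5.87 for assembly factors and 5.39 for the synthetases, of which Lars2 and Fars2 were the highest at 30.2 and 12.4 FPKM.

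Of 15 mitochondrial translation factors, the elongation factors Tufm and Gfm1 were highest at 76.2 and 27.7 FPKM, and the list had a median of 7.13 FPKM. Among 12 genes for the expression of mitochondrial DNA, Tfb2m, which helps the mitochondrial RNA polymerase to start, stood at 16.6 FPKM, and Ssbp1, which binds single-stranded mitochondrial DNA, at 11.1. Of 9 regulators of mitochondrial biogenesis, Esrra was at 68.8 and Yy1 at 18.4 FPKM. Of 12 genes of protein import and processing, the chaperone Hspa9 and the inner-membrane channel Timm23 were highest, at 159 and 149 FPKM. The mitochondrial messenger RNAs mt-Co1 and mt-Nd1 were at 20437 and 13071 FPKM, the highest of 13 that went down to 8.24 FPKM for mt-Atp8. How multiply matching reads were handled is unstated, so the low values among them cannot be read as low transcript levels.

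The members were spread over 17 chromosomes, with 11 on chromosome 11, 8 on chromosome 17 and 7 on chromosome 6. A coding gene transcribed away from the member started within 1000 bases, or overlapped its start by at most 300, for 23 of 77 members (29.9%), which was so for 13.4% of 10208 coding genes at 1 FPKM or more. Such pairs include Mrpl2 with Klc4, Mrpl30 with Mitd1 and Mrpl32 with Psma2. Exon bases were shared with another gene for 32 members, so that some of their reads may not be theirs. Among those named above, Mrps24 shares them with Urgcp on the same strand, and Mrpl12, Mrpl14, Mrpl18, Mrpl19, Mrpl47, Mrpl58 and Mrps30 share them with genes on the opposite strand.

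Promoter windows, running from 250 bases before to 50 after the start, were matched for 68 of the 77 members (74 windows, RefSeq, GRCm38.p6). Those below were chosen after the values were seen, and each holds a marked motif. They show Mrpl42 and Mrps21, at the top of their subunits, and other members picked to show the motifs in their setting. Capitals mark CCGGAAG, the core bound by ETS factors such as GABP, the palindromic site of NRF1, and AANATGGCG, that of YY1, on either strand; each is printed in the direction of its gene.

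Mrpl42, chr10:95501900-95502199 (-): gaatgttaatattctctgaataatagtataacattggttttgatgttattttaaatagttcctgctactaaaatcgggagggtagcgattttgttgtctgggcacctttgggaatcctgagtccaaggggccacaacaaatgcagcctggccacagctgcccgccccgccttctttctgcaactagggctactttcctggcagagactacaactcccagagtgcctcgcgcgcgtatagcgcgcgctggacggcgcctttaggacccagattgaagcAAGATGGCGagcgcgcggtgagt
Mrps21, chr3:95871465-95871764 (-): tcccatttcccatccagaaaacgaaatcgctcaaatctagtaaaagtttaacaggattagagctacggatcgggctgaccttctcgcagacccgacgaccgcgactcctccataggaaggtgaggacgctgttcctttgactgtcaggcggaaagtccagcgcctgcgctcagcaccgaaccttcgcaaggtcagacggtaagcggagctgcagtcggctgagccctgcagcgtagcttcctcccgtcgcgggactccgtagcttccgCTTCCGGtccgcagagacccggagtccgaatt
Mrpl52, chr14:54426659-54426958 (+): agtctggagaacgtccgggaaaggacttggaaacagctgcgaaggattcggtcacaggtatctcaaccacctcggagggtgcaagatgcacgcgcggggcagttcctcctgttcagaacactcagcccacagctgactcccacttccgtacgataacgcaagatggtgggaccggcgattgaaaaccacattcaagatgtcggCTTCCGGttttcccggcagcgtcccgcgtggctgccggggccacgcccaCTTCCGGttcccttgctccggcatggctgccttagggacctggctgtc
Mrpl32, chr13:14612988-14613287 (-): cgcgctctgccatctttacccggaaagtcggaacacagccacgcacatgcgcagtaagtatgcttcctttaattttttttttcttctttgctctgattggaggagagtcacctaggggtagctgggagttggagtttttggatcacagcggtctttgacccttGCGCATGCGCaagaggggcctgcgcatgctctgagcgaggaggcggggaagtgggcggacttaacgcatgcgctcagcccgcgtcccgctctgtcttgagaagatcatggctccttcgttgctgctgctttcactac
Mrpl58, chr11:115403502-115403801 (+): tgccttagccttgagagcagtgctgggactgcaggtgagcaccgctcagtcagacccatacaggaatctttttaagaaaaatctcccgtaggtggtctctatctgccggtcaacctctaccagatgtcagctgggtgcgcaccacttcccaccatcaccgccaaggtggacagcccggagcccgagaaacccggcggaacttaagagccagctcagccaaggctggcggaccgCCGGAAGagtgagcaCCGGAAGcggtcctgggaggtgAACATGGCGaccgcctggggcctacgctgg
Mrps11, chr7:78782881-78783180 (+): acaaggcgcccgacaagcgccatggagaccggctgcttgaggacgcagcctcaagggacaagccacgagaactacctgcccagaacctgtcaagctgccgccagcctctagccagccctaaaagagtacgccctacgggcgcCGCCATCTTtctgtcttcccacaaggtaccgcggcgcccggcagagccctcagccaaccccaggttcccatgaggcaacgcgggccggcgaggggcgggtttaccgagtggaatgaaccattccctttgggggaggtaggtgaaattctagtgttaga

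Mrpl42 holds the YY1 motif, shortly after its start, and Mrps21 an ETS core. Mrpl52 holds 2 ETS cores, Mrpl32 an NRF1 motif, and Mrpl58 2 ETS cores with a YY1 motif. The windows of Mrpl2, Mrpl30, Mrpl23 and Mrps36, also among the highest of their subunits, are not printed and hold none of these motifs. The Mrps11 window overlaps by 141 bases that of Mrpl46, which lies on the opposite strand of chromosome 7, and it holds a YY1 motif on the strand opposite to Mrps11. Mrps11 was at 8.88, 10.9, 9.54, 9.22 and 8.50 FPKM and Mrpl46 at 21.8, 24.0, 20.7, 21.6 and 19.8 FPKM, both with library 2 highest and library 5 lowest. These genes also share 173 exon bases on opposite strands, and the strand setting is unstated, so some reads may have counted for the wrong gene or for both. By the chi-square test on recovered reads, Mrps11 did not vary beyond counting error (adjusted p = 0.0996), and Mrpl46 had an adjusted p of 0.036.

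The ETS core was found in the promoters of 25 of 68 members (36.8%), against 9.93% of the 27025 genes with a promoter window and 20.8% of the coding genes at 1 FPKM or more. It was in 33.3% of the large and 42.3% of the small members, in 42.1% of the cytosolic ribosomal protein genes and in 25.4% of the nuclear respiratory chain genes. The YY1 motif was found in 16.2% of members (2.76% of all genes, 6.45% of expressed coding genes) and the NRF1 motif in 4.41% (1.07% and 2.48%). The letters CCAAT were found in 38.2% of members (41.1% and 42.5%), and TATAAA in 7.35% (15.7% and 8.75%). The NRF1 share of members rests on 3 genes, all of the large subunit. Among nuclear respiratory chain genes 15.9% held the YY1 motif and 7.94% the NRF1 motif, and among cytosolic ribosomal protein genes 8.77% and 3.51%. Such matches describe letters in a window, and they show neither binding nor a role in the levels above. The median share of G and C in the windows was 58.8% for members, 52.7% for all genes and 61.0% for expressed coding genes.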

How the data were processed

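Per the labels' protocols, RNA of about 20 mg of gastrocnemius per library was extracted with Trizol, poly-A RNA was selected on poly-T beads and fragmented, and library making and sequencing were done by Novogene. Per the submitters' processing notes, build mm10 and the tools STAR 2.5, HTSeq 0.6.1, TopHat, edgeR and DESeq2 were involved, with no role stated; strand setting and the handling of multiply matching reads are unstated. The authors deposited FPKM values per gene and library. A larger share of reads for a few genes therefore lowers the FPKM of all others.

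Of 35275 identifiers, 34490 matched the GENCODE M21 annotation of GRCm38. Library totals and gene lengths that turn the FPKM values into whole reads, within 0.001 of a read, were found for 10709 of the 10710 genes averaging at least 1 FPKM (99.99%), of which 960 were whole at their annotated exon length. The chi-square per gene between pairs of libraries averaged 25.6 to 133, where counting error alone gives about 1, so none was a copy of another. Counting errors given here cover reads only, which are not independent molecules.

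Tests used log2(FPKM + 1) in genes averaging at least 1 FPKM: limma 3.58.1 in R 4.3.3 for the spread between libraries (intercept fit, variance over its trend, one-sided, Benjamini-Hochberg adjustment, threshold 0.05), checked on simulated data, and exact sign-flip permutation tests. Other work used scipy 1.17.1, numpy 2.4.6, matplotlib 3.10.9 and pandas 2.3.3 in Python 3.11.15. Named members are the 6 highest and 3 lowest of each subunit, the 5 most and 3 least variable, and those with special names or roles; of other lists, the 2 highest. Members and lists were chosen with earlier results of these data known. Alternatives covered pseudocount, filter, scaling, gene length, shared exons and each library left out.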

Additional observations from a re-analysis of the deposited data

Results flagged for a closer look

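5 of the 76 members tested had 1 library whose gap to the next took more than 0.71 of the whole range of the gene, which chance gives for about 1 in 20 genes. That is 6.58% of the members, where 9.79% of all 10710 genes did so, so the number is no result about the members. Library 3 stood apart in 3 of them: Mrpl52 was highest there at 105 FPKM, Mrps35 highest at 4.61 FPKM and Mrps31 lowest at 13.1 FPKM. Mrpl49 was highest in library 2 at 15.4 FPKM, and Mrpl17 lowest in library 5 at 8.71 FPKM. The score of the large-subunit genes was lowest in library 5, at -0.095. Macrophage and regenerating-muscle marker lists stood apart in library 3, with scores of 1.45 and 1.93.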

How the results depend on the processing

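No paired analysis was possible because the 5 libraries form 1 group. The mean of each of the 6 differences in level kept its sign under every alternative run, but 2 of them nearly vanished and lost their agreement over libraries. Large minus small was 0.02 with genes at 10 FPKM or more (higher in 4 of 5 libraries, exact sign-flip p = 0.69), and bacterial-type minus mitochondria-specific was 0.02 per annotated exon length (3 of 5, exact sign-flip p = 0.81). The filter at 10 FPKM cuts on the level that is compared and kept 39 large and 18 small genes. Counts and scores by library moved too. Scaling by the median ratio put the highest value in libraries 1 to 5 for 0, 4, 4, 59 and 9 members and the lowest in libraries 2 to 5 for 19, 32, 1 and 5. It moved the score in libraries 1 to 5 to -0.056, -0.060, -0.10, 0.20 and 0.016 over all members, to -0.051, -0.050, -0.087, 0.19 and -0.0037 in the large and -0.066, -0.076, -0.13, 0.22 and 0.048 in the small subunit. With genes at 10 FPKM or more, members were lowest in libraries 1, 2 and 4 in 11, 1 and 3 cases and highest in libraries 3 and 5 in 11 and 1. Without members that share exon bases (fewer genes), the highest value fell in libraries 2 to 5 for 10, 9, 16 and 3 members, and the lowest in libraries 1, 3 and 5 for 8, 10 and 18. The median over members gave the small subunit 0.018 in library 3. Leaving out 1 library in turn gave 13 to 18, 17 to 25, 17 to 25, 28 to 39 and 5 to 10 members highest in libraries 1 to 5, and 17 to 27, 4 to 13, 17 to 26, 9 to 13 and 33 to 39 lowest, since its members move to another library. Beyond the scaling, the cause of these changes was not tested. With 5 libraries no sign-flip p can fall below 0.062, and the limma fit called 0 members under each setting, also at an unadjusted p below 0.05. With adjustment it called 0 genes of any kind in the main setting and 4 of 10569 without library 3, none of them a member. Its adjusted count therefore does not set the members apart. Of the coefficients of variation of named genes, 30 values moved by more than 1.5 times.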
